A study of Mus musculus with 18 samples.

Results

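The respiratory chain and the ATP synthase were examined in mouse retina as 81 nuclear genes that encode subunits of complexes I to V. The members were chosen by symbol alone: genes whose annotated symbol begins with Nduf and a subunit letter and number, is Sdha to Sdhd, begins with Uqcr or Atp5, or is Cox4 to Cox8, on probe sets that name 1 gene. They are 81 of the 18193 genes measured: 35 of complex I, 4 of complex II, 8 of complex III, 17 of complex IV and 17 of complex V. Retinas of C57BL6/J males, 2 months old, were taken 7 or 30 days after an intravitreal injection of BSS (the control), DEX or TAA, which the study's title gives as dexamethasone and triamcinolone. Each of the 6 groups (BSS, DEX or TAA at day 7, and the same at day 30) has 3 arrays from biological replicates, 18 arrays in all, and all animals share strain, sex and age. The labels give no dose, and nothing in them says whether an array holds 1 retina or a pool. In whole retina, fewer cells of a type and less RNA per cell cannot be told apart.

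The electron transport chain lies in the inner mitochondrial membrane. Complexes I and II pass electrons from NADH and succinate to ubiquinone, complex III passes them on to cytochrome c, complex IV hands them to oxygen, and complex V uses the resulting proton gradient to make ATP. Photoreceptors pack their inner segments with mitochondria, and the retina is among the most energy-demanding tissues. Glucocorticoids such as dexamethasone and triamcinolone act through a nuclear receptor that changes transcription. Most subunits are small nuclear-encoded proteins that surround a catalytic core, part of which is encoded by mitochondrial DNA. The mitochondrial genes are not members.

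Each value is a log2 value relative to the median of its probe set over the 18 arrays, so that 1 unit is a doubling, 0 is the median array, and neither levels nor signal over background can be read. For this reason the retina label could not be checked against marker levels, and no gene's level is set against another's. By the members' values 1 array stood apart before any comparison. On TAA day 30 replicate 2 the median of the members was -0.39, with an SD over the members of 0.52, and 33 of 81 lay below a log2 value of -0.5, against 0 to 9 of 81 on the other arrays. That array also held the lowest medians of the cytosolic ribosomal proteins (-0.60), the mitochondrial ribosomal proteins (-0.37), the rod markers (-0.35) and the ganglion cell markers (-0.70). It held the lowest difference between the 3' and 5' probe sets of Actb too (-0.46, against -0.17 to 0.14 elsewhere). For Gapdh the same difference was -0.09 on that array, inside the range of the other arrays (-0.16 to 0.28). The part of RNA quality or of cell makeup in the members' values was not tested, and most results that rest on this array are given with and without it. Over all genes TAA day 7 replicate 2 spread as widely as that array (SD 0.378, against 0.376 on TAA day 30 replicate 2). No pair of arrays was a duplicate: the highest correlation between any pair over all probe sets was 0.665.

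**Figure D1:**
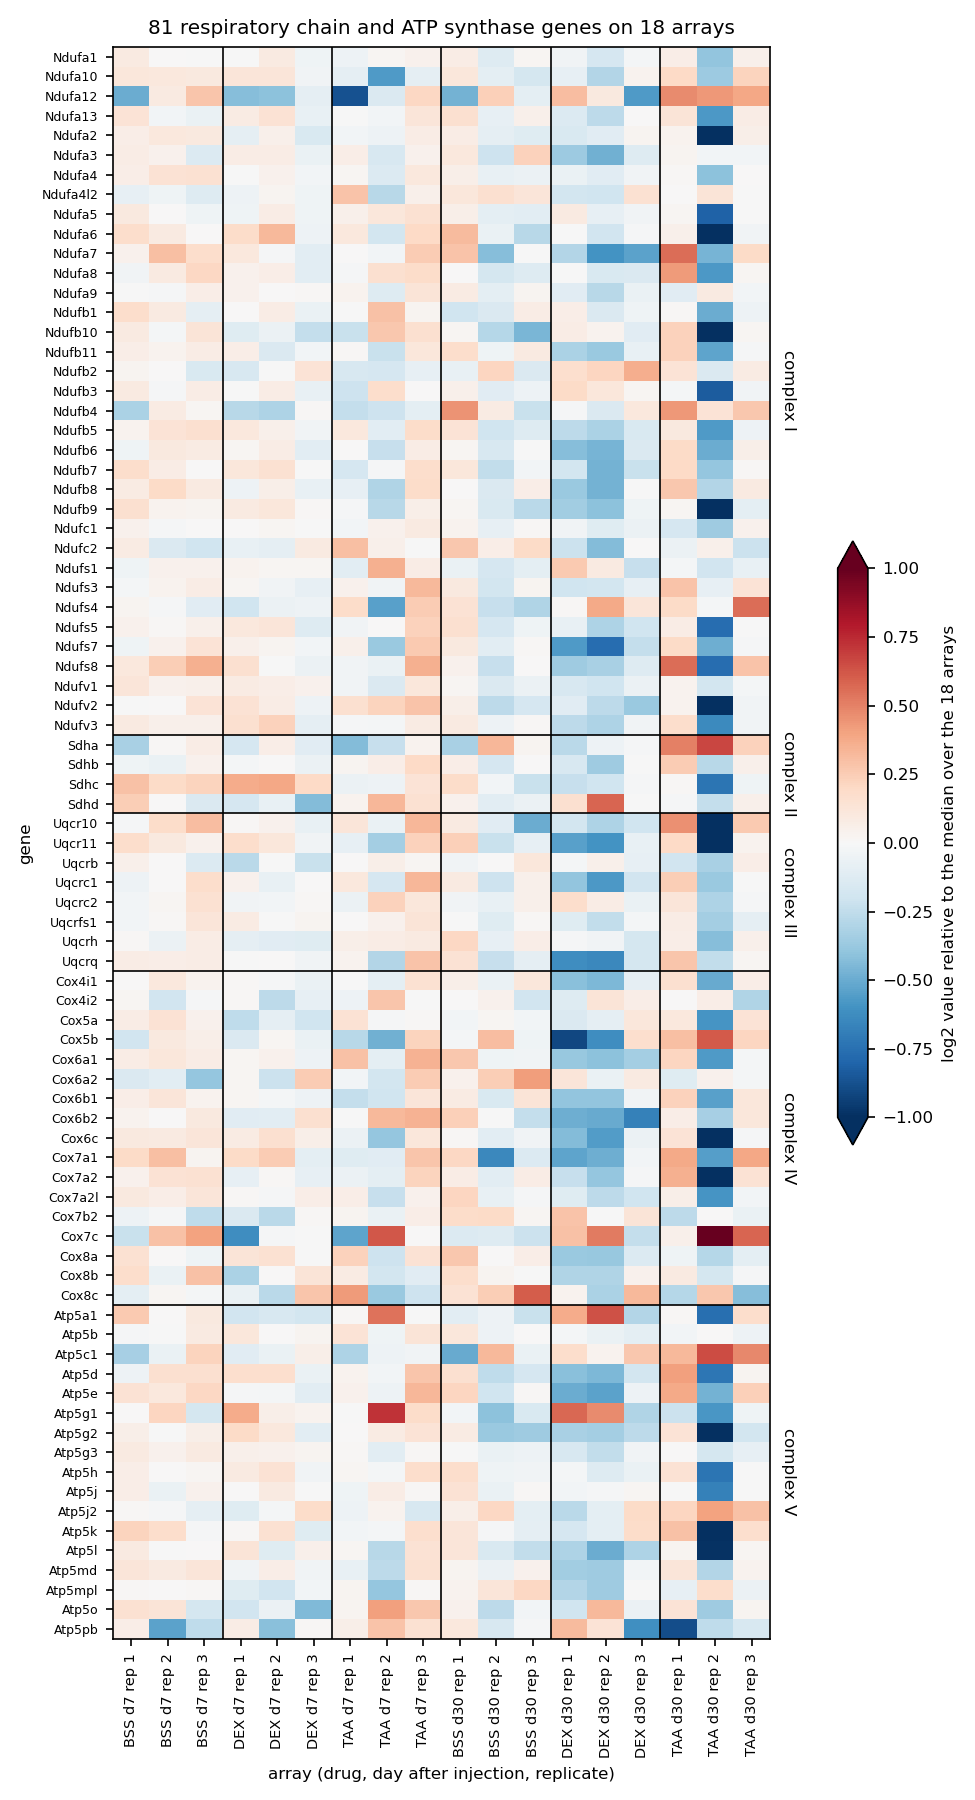
Heat map of the 81 genes (rows, by complex) on the 18 arrays (columns, by group and replicate), coloured by log2 value relative to the gene's median and clipped at -1 and 1. TAA day 30 replicate 2 is the darkest column, and DEX day 30 replicates 1 and 2 are blue in most rows while DEX day 30 replicate 3 is paler.

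No member passed an adjusted p under 0.05 in any of the 9 comparisons (limma fitted on all 18193 genes, Benjamini-Hochberg adjustment over all of them). Few other genes did: 0.0% of all genes passed for DEX against BSS at day 7 and at day 30, for TAA against BSS at day 30, for DEX against TAA at day 30 and for the change of either drug effect between the days. It was 0.0055% (1 gene, Folh1) for TAA against BSS at day 7 and again for DEX against TAA at day 7, and 0.0275% (5 genes) for BSS at day 30 against BSS at day 7. Those 5 were Jchain, Col19a1, Foxp2, Rhobtb3 and 1 clone symbol; none is a subunit, and the named ones were picked out after their values were seen. Before adjustment, p under 0.05 was reached by between 0 and 14 members in a comparison, and these counts are given below beside the share of all genes. The smallest adjusted p of any member was 0.0952, for Cox5b in DEX against TAA at day 30.

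The largest shift of the members against control was that of DEX at day 30. The median member lay at a log2 difference of -0.13, against -0.04 for all genes, and 64 of 81 members (79.0%) were on the lower side, against 57.9% of all genes. On replicates 1, 2 and 3 the median of the members was -0.16, -0.25 and -0.05 under DEX, and 0.08, -0.10 and -0.03 under BSS. DEX replicates 1 and 2 were low, and replicate 3 lay inside the range of the BSS arrays, so the groups overlapped. Between same-numbered arrays the DEX minus BSS difference of these medians was -0.24, -0.15 and -0.03. The deviations of same-numbered arrays correlated at 0.111 to 0.282 here, and those of unlike-numbered arrays at -0.212 to 0.104. All same-numbered pairs were above 0.1 in 1 of 7 comparisons only, this one, so the differences by number are a description. By complex, the median difference was -0.13 for complex I (27 of 35 lower), -0.12 for complex II (3 of 4), -0.12 for complex III (7 of 8), -0.25 for complex IV (14 of 17) and -0.10 for complex V (13 of 17). Before adjustment, 12 members (14.8%) had p under 0.05, all of them lower, against 11.5% of all genes. Of these 12, 5 belong to complex IV and 4 to complex I. All 3 DEX arrays lay below all 3 BSS arrays for 10 members (12.3%; 9.94% of all genes did so) and above them for 0 members (4.46% of all genes). The shares of 14.8% and 12.3% lay near those of all genes. Within complex I the differences ran from -0.52 (Ndufs7) to 0.30 (Ndufs4), within complex III from -0.42 (Uqcrq, at 0.09 without probe sets that may cross-hybridise) to 0.08 (Uqcrc2), within complex IV from -0.55 (Cox6b2) to 0.35 (Cox7c) and within complex V from -0.37 (Atp5e, the epsilon subunit) to 0.44 (Atp5g1).

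**Figure D2:**
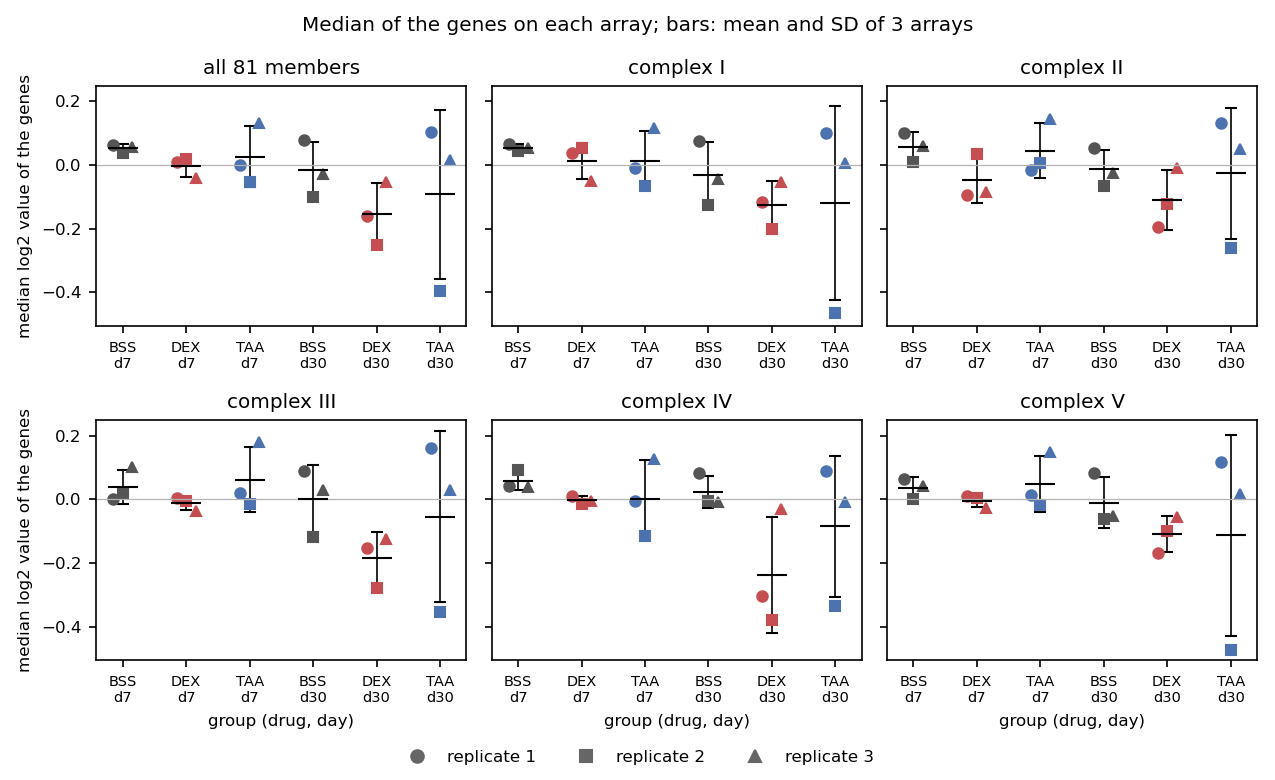
Median log2 value of the genes on each array, for all 81 members and for each complex, with group on the x axis; bars give the mean and SD of 3 arrays. In complex IV the DEX arrays at day 30 read -0.30, -0.38 and -0.03, and in every panel TAA day 30 replicate 2 is the lowest of its group.

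Complex IV, cytochrome c oxidase, held the member of smallest p under DEX at day 30. Cox6b2, the isoform of subunit 6b first known from testis, read 0.24, -0.0047 and -0.24 on the BSS arrays and -0.49, -0.51 and -0.67 on the DEX arrays. All 3 DEX arrays were low and alike, below every other array of the series, TAA day 30 replicate 2 included. The difference was -0.55 (SE 0.145, limma adjusted p = 0.354).

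Cox8a, the ubiquitous form of the small subunit 8, read 0.27, 0.0054 and 0.07 under BSS and -0.37, -0.38 and -0.14 under DEX. The groups did not overlap, with DEX replicates 1 and 2 the lowest, and the difference was -0.41 (SE 0.125, limma adjusted p = 0.362). Its 3 probe sets gave differences of -0.41, -0.47 and -0.20, all lower. Cox6a1, the common form of subunit 6a, read 0.27, -0.04 and -0.03 under BSS against -0.38, -0.41 and -0.34 under DEX, again without overlap and here with replicate 3 as low as the others, a difference of -0.44 (SE 0.161, limma adjusted p = 0.376). Cox4i1, the common form of the regulatory subunit 4, read 0.06, -0.06 and 0.11 against -0.42, -0.45 and -0.09. DEX replicate 3 lay just below the lowest BSS array, and the difference was -0.35 (SE 0.145, limma adjusted p = 0.394). None of these passed after adjustment over all genes.

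Tissue forms of complex IV subunits were set beside their common partners, in DEX against BSS at day 30. Each pair was on the lower side except subunit 4, where the lung form Cox4i2 was at 0.07 and Cox4i1 at -0.35. The muscle form Cox6a2 was at -0.19, against -0.44 for Cox6a1. Cox6b1, the partner of Cox6b2, was at -0.29. For subunit 7a, the muscle form Cox7a1 was at -0.16 and Cox7a2 at -0.22. For subunit 8, the muscle form Cox8b was at -0.25 and the testis form Cox8c at -0.32, with wide scatter for Cox8c between DEX arrays (0.03, -0.32 and 0.33). None of these passed, and no difference between isoforms was tested. Ndufa4, which the symbol rule counts with complex I though the protein is now placed in complex IV, was at -0.05, and its hypoxia-induced relative Ndufa4l2 at -0.21.

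In complex I, which oxidises NADH, the lowest difference under DEX at day 30 was that of Ndufs7, an iron-sulphur subunit next to the quinone site, named after its values were seen. Ndufs7 read 0.10, -0.11 and 0.02 under BSS and -0.56, -0.76 and -0.24 under DEX. All 3 DEX arrays were lower, replicate 3 the least, with a difference of -0.52 (SE 0.175, limma adjusted p = 0.362). Ndufc2, an accessory subunit of the membrane arm, read 0.27, 0.07 and 0.19 against -0.21, -0.43 and 0.0048, a difference of -0.39 (SE 0.128, limma adjusted p = 0.362). The groups did not overlap, but this rests on 1 probe set: the other 3 probe sets of Ndufc2 gave -0.04, 0.06 and 0.15. In the core of the NADH-oxidising arm, Ndufv1, which carries the flavin, was at -0.08, and Ndufs1, the largest iron-sulphur subunit, at 0.15. The DEX values of Ndufs1 were 0.26, 0.09 and -0.23, against -0.07, -0.17 and -0.10 under BSS, so that replicate 1 and replicate 3 lay far apart.

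In complex II, which oxidises succinate, the catalytic flavoprotein Sdha was at -0.12 and the iron-sulphur subunit Sdhb at -0.14. Sdhd, a membrane anchor, was on the higher side, with 0.04, -0.11 and -0.05 under BSS and 0.16, 0.58 and -0.0054 under DEX. Only DEX replicates 1 and 2 were above the BSS arrays, and the difference was 0.29 (SE 0.151, limma adjusted p = 0.461). Its other probe set, which is not marked as cross-hybridising, gave -0.09. In complex III, the core subunit Uqcrc1 read 0.09, -0.21 and 0.05 under BSS and -0.40, -0.57 and -0.19 under DEX. Replicates 1 and 2 were low and replicate 3 overlapped the lowest BSS array, with a difference of -0.37 (SE 0.157, limma adjusted p = 0.409). The Rieske iron-sulphur protein Uqcrfs1 was at -0.09.

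In complex V, the catalytic beta subunit Atp5b hardly varied. It read 0.12, -0.05 and 0.0058 under BSS and -0.02, -0.07 and -0.10 under DEX, a difference of -0.09, and its residual SD of 0.067 was among the lowest of the 81. Atp5g1, 1 of the genes for the membrane ring subunit c, was the highest member: -0.02, -0.41 and -0.15 under BSS against 0.58, 0.47 and -0.30 under DEX, a difference of 0.44 (SE 0.222, limma adjusted p = 0.446). DEX replicates 1 and 2 were high and replicate 3 lay among the BSS arrays. Ndufb2, an accessory subunit of complex I, was also on the higher side, with -0.07, 0.22 and -0.15 against 0.17, 0.21 and 0.36 and a difference of 0.25 (SE 0.119, limma adjusted p = 0.434). BSS replicate 2 overlapped the DEX arrays. For both genes another probe set went the other way, as described with the probe sets further on.

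How many genes passed for DEX against BSS at day 30 depended on DEX replicate 3. The median member difference kept its sign, between -0.18 and -0.08, whichever single replicate of either group was left out. Over all members, DEX replicates 1 and 2 correlated at 0.836, and replicate 3 at -0.0056 and 0.102 with them (Pearson r over the 81 members, a description; all arrays share 1 normalization). Without replicate 3, 3.82% of all genes passed the adjusted threshold and 2 members did (2.47%), Cox5b at -0.85 and Ndufc2 at -0.50. At an unadjusted p under 0.05 there were then 23 members (28.4%), against 24.4% of all genes. With arrays weighted by limma's arrayWeights, which gave replicate 3 a weight of 0.273 and replicate 1 a weight of 1.86, 14.8% of all genes passed and 20 members did (24.7%), 18 lower and 2 higher. The lower ones included Ndufs7, Uqcrq, Cox4i1, Cox5b, Cox6a1, Cox6b2, Cox8a and Atp5e, and the higher ones were Atp5g1 and Atp5a1. Both higher values are those of the probe set used. For Atp5a1 that probe set correlated at -0.66 with the mean of the gene's other probe sets. For Atp5g1 the other probe set went the other way, as described further on. Removing TAA day 30 replicate 2, which enters only the shared spread, left every DEX difference as it was. It gave 22 members (27.2%) at an unadjusted p under 0.05, against 14.4% of all genes, and 0 after adjustment. That array was set apart by the members' own values, so this share is a description.

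Genes that work beside the chain were described in the same way, without a test against the members. Of 42 assembly factors measured, which build the complexes and are not part of them, 19 were lower under DEX at day 30, with a median of 0.03. Of 15 citrate cycle and pyruvate dehydrogenase genes, 5 were lower (median 0.03), and of 12 regulators of mitochondrial biogenesis, 4 were lower (median 0.10, from -0.14 for Pprc1 to 0.46 for Gabpa, a subunit of an ETS-family factor). All 14 glycolysis genes measured were on the lower side (median -0.13), from -0.02 for Aldoc to -1.36 for Hk1, and 2 had an unadjusted p under 0.05. Cytosolic ribosomal proteins were lower in 29 of 45 (median -0.07) and mitochondrial ribosomal proteins in 43 of 73 (median -0.01). None of the genes of these lists passed the adjusted threshold in this comparison. All 8 microglia markers were on the lower side (median -0.53), with array medians of 0.47, -0.43 and 0.67 under BSS and -0.55, -0.45 and 0.03 under DEX. All 10 lens markers were too (median -1.71), with array medians of 2.04, -0.22 and 2.37 under BSS and -1.50, -0.09 and 0.35 under DEX. The 11 rod markers had a median of 0.04, the 7 cone markers -0.12 and the 12 muscle markers -0.04. Bipolar cell markers were lower in 4 of 6 (median -0.15) and Müller glia markers in 5 of 8 (median -0.09). Ganglion cell markers were lower in 4 of 8 (median 0.06) and pigment epithelium markers in 4 of 11 (median 0.19). Defining markers at 0 cannot be told in centred values, and the part of cell makeup in the members' shift was not tested.

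**Figure D3:**
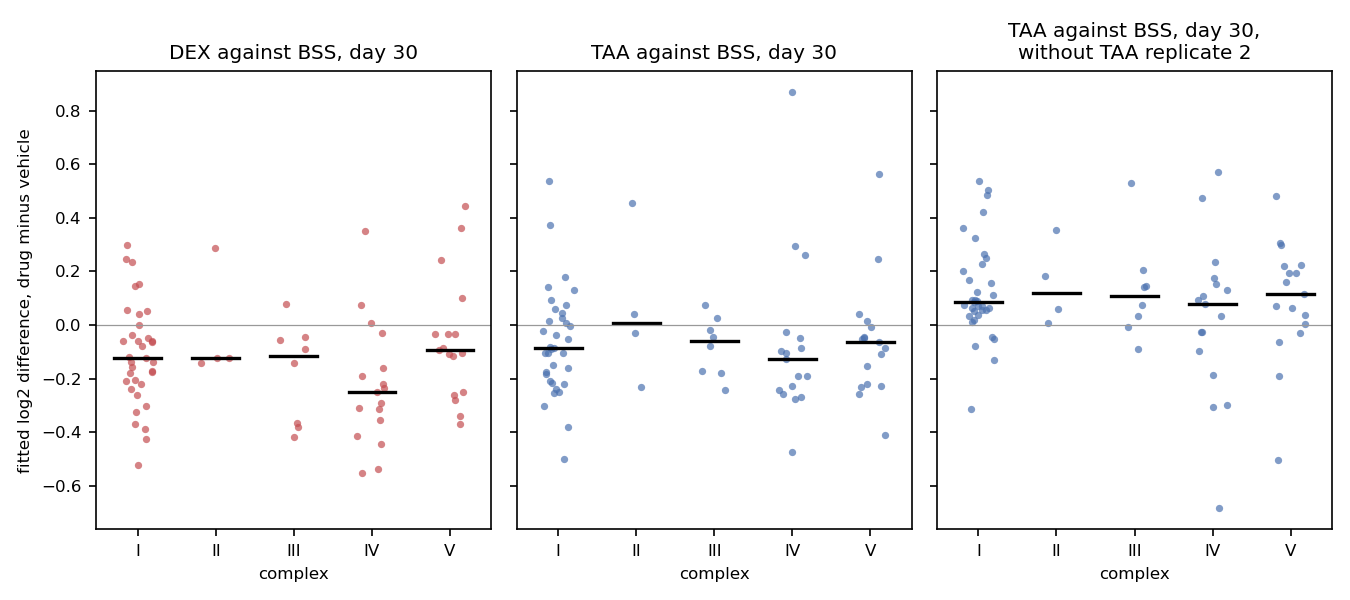
Fitted log2 difference from BSS at day 30 for each of the 81 genes (points, by complex; bars mark medians) under DEX, under TAA, and under TAA without replicate 2. The complex medians under DEX run from -0.25 to -0.10, and those under TAA move from between -0.13 and 0.0059 to between 0.08 and 0.12 without that array.

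For TAA at day 30 the direction of the members hung on 1 array. With all arrays the median member lay at -0.09 (all genes -0.02), and 58 of 81 (71.6%) were on the lower side, against 55.8% of all genes. Without TAA replicate 2 the median was 0.09 (all genes -0.0076) and 18 of 81 were lower. The median of the members on the 3 TAA arrays was 0.10, -0.39 and 0.02, against 0.08, -0.10 and -0.03 under BSS. Replicate 2 lay below all BSS arrays, replicate 1 lay above them all, and replicate 3 lay among them. By complex, the median difference changed from -0.09 to 0.09 for complex I, from 0.0059 to 0.12 for complex II, from -0.06 to 0.11 for complex III, from -0.13 to 0.08 for complex IV and from -0.06 to 0.12 for complex V. With all arrays, 5 members (6.17%) had an unadjusted p under 0.05, against 7.24% of all genes, 3 of them higher. Without replicate 2, which was set apart by the members' own low values, there were 11 (13.6%), against 9.46% of all genes, as a description. No overlap between the groups was seen for 4 members on the higher side (all genes 5.86%) and for 5 on the lower side (all genes 7.54%).

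The members that stood highest under TAA at day 30 were high on replicate 2 as well, against the run of the other subunits on that array. Atp5c1, the gamma subunit that turns inside the catalytic head, read -0.50, 0.33 and -0.06 under BSS and 0.33, 0.65 and 0.48 under TAA. The TAA arrays were level with or above the highest BSS array, and the difference was 0.57 (SE 0.176, limma adjusted p = 0.618). Cox7c, a small subunit of complex IV, read -0.13, -0.13 and -0.21 against 0.05, 1.50 and 0.59, a difference of 0.87 (SE 0.323, limma adjusted p = 0.619). The groups did not overlap, and replicate 2 held the highest value of any member on any array. Sdha read -0.32, 0.33 and 0.03 against 0.51, 0.67 and 0.23, a difference of 0.46 (SE 0.169, limma adjusted p = 0.619), with BSS replicate 2 inside the TAA range. For Atp5c1 and Sdha the rise was that of the probe set used. Their other probe sets did not show it, as described with the probe sets further on.

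On the lower side, Cox8a read -0.04, -0.29 and -0.10 under TAA at day 30, below all BSS values given above, a difference of -0.26 (SE 0.125, limma adjusted p = 0.691). Cox7b2, a testis form of subunit 7b, read 0.18, 0.19 and 0.02 under BSS and -0.26, 0.0012 and -0.07 under TAA, a difference of -0.24 (SE 0.114, limma adjusted p = 0.687). The arrays did not overlap, with BSS replicate 3 and TAA replicate 2 nearest to each other. Cox8c read 0.14, 0.25 and 0.60 against -0.28, 0.27 and -0.43, a difference of -0.48 (SE 0.221, limma adjusted p = 0.687), and here TAA replicate 2 lay inside the BSS range. None of the 6 passed after adjustment. Without TAA replicate 2 Atp5c1 was at 0.48, Cox7c at 0.48, Sdha at 0.36, Cox8a at -0.19, Cox7b2 at -0.30 and Cox8c at -0.68, all with the same sign as before. Markers of ganglion cells were on the lower side in 6 of 8 (median -0.25), those of microglia in 8 of 8 (median -0.31) and those of rods in 8 of 11 (median -0.12). Bipolar cell markers were lower in 4 of 6 (median -0.30) and Müller glia markers in 6 of 8 (median -0.08). Cone markers were lower in 3 of 7 (median 0.0076) and pigment epithelium markers in 4 of 11 (median 0.07), while lens markers were higher in 10 of 10 (median 0.27). The array medians of the lens markers were 0.15, 0.18 and 5.09 under TAA and 2.04, -0.22 and 2.37 under BSS. Only TAA replicate 3 lay above the BSS arrays. The part of these markers in the members' values was not tested.

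Of the core subunits under TAA at day 30, Sdha was the highest by the probe set used, with the values given above. With all arrays, and then without TAA replicate 2, Ndufv1 was at 0.0084 and 0.07, Ndufs1 at 0.01 and 0.06, Sdhb at 0.04 and 0.18, Uqcrc1 at -0.02 and 0.15, and Uqcrfs1 at -0.08 and 0.03. Cox4i1 went from -0.13 to 0.08 and Cox5a from -0.11 to 0.13, while Atp5b stayed on the lower side, at -0.05 and -0.06. The widest turns were those of accessory subunits of complex I: Ndufb10 went from -0.24 to 0.36, and Ndufa6 from -0.50 to 0.02. Cox7a1 stood at 0.26 and 0.57.

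**Figure D4:**
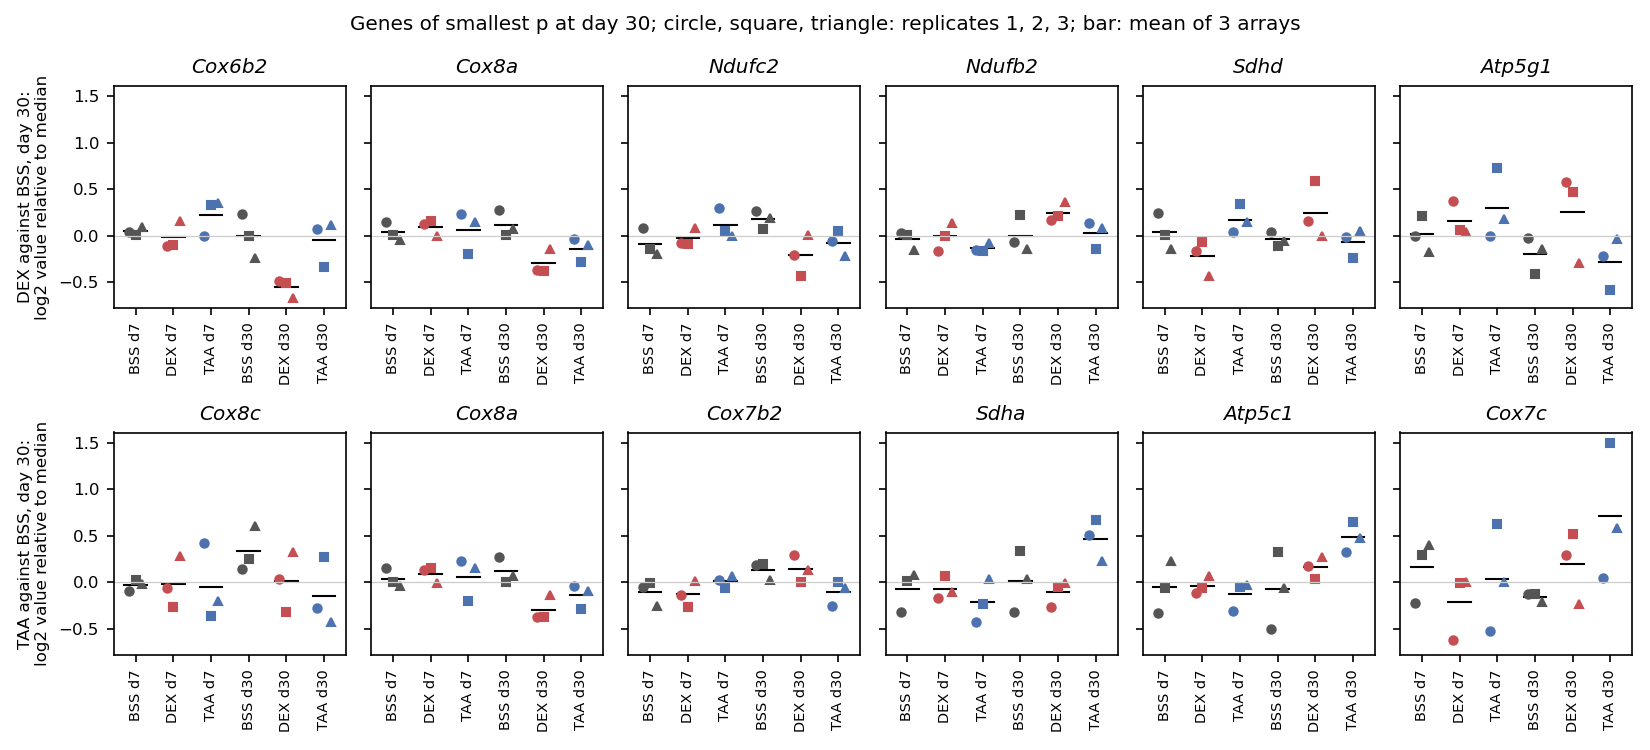
Log2 value relative to the gene's median on each array in DEX against BSS (top) and TAA against BSS (bottom) at day 30. Shown are the 3 genes of smallest p on the higher side and the 3 on the lower side, and bars mark the mean of 3 arrays. Cox6b2 is between -0.67 and -0.49 on the 3 DEX day 30 arrays, and Cox7c is at 1.50 on TAA day 30 replicate 2.

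DEX and TAA were also set against each other at day 30; this comparison and the ones against BSS share arrays. The median member, DEX minus TAA, lay at -0.06 (all genes -0.01), with 49 of 81 lower (60.5%; all genes 52.3%). The median was -0.23 without TAA replicate 2, with 68 of 81 lower, and 0.08 without TAA replicate 1. With all arrays 14 members (17.3%) had an unadjusted p under 0.05, against 16.6% of all genes. Without TAA replicate 2 there were 35 (43.2%), against 16.4% of all genes, and 0 after adjustment. That array was set apart by the members' own low values, so leaving it out raises their TAA values by construction. The excess of members is therefore a description. Without overlap between the groups were 8 members on the lower side (9.88%; all genes 8.97%) and 2 on the higher side (2.47%; all genes 5.78%).

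Cox5b, a nuclear subunit on the matrix side of complex IV, had the smallest p, and is named here for that. It read -0.91, -0.62 and 0.17 under DEX and 0.30, 0.61 and 0.22 under TAA, a difference of -0.83 (SE 0.221, limma adjusted p = 0.0952). DEX replicates 1 and 2 were the lowest of all 18 arrays, and replicate 3 lay just below the lowest TAA array. Sdha differed by -0.58 (SE 0.169, limma adjusted p = 0.115) and Cox6b2 by -0.50 (SE 0.145, limma adjusted p = 0.11), both without overlap between the arrays, while Atp5g1 differed by 0.53 (SE 0.222, limma adjusted p = 0.24). Without DEX replicate 3, 6.89% of all genes passed the adjusted threshold and 4 members did (4.94%): Cox5b, Uqcrq and Atp5j2 lower and Atp5g1 higher. At an unadjusted p under 0.05 there were then 23 members (28.4%), against 24.5% of all genes. With arrayWeights 13.0% of all genes passed and 22 members did (27.2%), 21 of them lower. The probe sets used for Cox5b, Atp5j2, Atp5g1 and Sdha followed the other members poorly (r of 0.09, -0.27, 0.07 and -0.32). Another probe set of each gene reached 0.70, 0.94, 0.85 and 0.26. Uqcrq was at 0.090 in DEX against BSS at day 30 without probe sets that may cross-hybridise. Differences by the other probe sets are not given for DEX against TAA.

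At day 7 the differences were smaller. Under DEX the median member lay at -0.05 (all genes -0.0047), and 56 of 81 (69.1%) were lower, against 51.6% of all genes. The median of the members read 0.06, 0.04 and 0.06 on the BSS arrays and 0.01, 0.02 and -0.04 on the DEX arrays, so all 3 DEX arrays lay below all 3 BSS arrays, by a narrow margin. No member had an unadjusted p under 0.05 (3.91% of all genes did). The arrays did not overlap for 14 members on the lower side (17.3%), among them Cox5a, Cox6a1, Cox6b1, Cox7a2, Atp5a1, Atp5e and Uqcrh, against 7.08% of all genes, and for 0 on the higher side, against 7.21%. Complex III was lower in 8 of 8 members (median -0.07) and complex IV in 14 of 17 (median -0.07), while complex V was at 0.00081. Cytosolic ribosomal proteins were on the lower side in 39 of 45 (median -0.10, 17 without overlap), and so were mitochondrial ribosomal proteins in 53 of 73 (median -0.07, 12 without overlap). Rod markers were lower in 9 of 11 (median -0.07), cone markers in 7 of 7 (median -0.10), pigment epithelium markers in 10 of 11 (median -0.54) and lens markers in 9 of 10 (median -0.61). Higher were microglia markers in 8 of 8 (median 0.49), bipolar cell markers in 5 of 6 (median 0.30) and Müller glia markers in 7 of 8 (median 0.11). Ganglion cell markers were lower in 4 of 8 (median -0.01). Their part in the members' values was not tested.

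Cox5a, a matrix-side subunit of complex IV, had the smallest p of the members under DEX at day 7, with a limma adjusted p of 0.99995 over all genes. It read 0.07, 0.15 and 0.04 under BSS and -0.25, -0.09 and -0.20 under DEX, with no overlap, a difference of -0.27 (SE 0.148). Atp5o, the subunit that ties the stator to the catalytic head, read 0.15, 0.13 and -0.17 against -0.19, -0.06 and -0.44, a difference of -0.26 (SE 0.165). Sdhd read 0.25, 0.0054 and -0.14 against -0.17, -0.07 and -0.43, a difference of -0.26 (SE 0.151). For both genes BSS replicate 3 lay among the DEX arrays. On the higher side were Cox6a2 at 0.23 (SE 0.141), Atp5g1 at 0.14 (SE 0.222) and Atp5pb, the stator subunit b, at 0.13 (SE 0.227). Each of these 3 overlapped between groups, and Atp5pb changed sign without BSS day 7 replicate 2 (-0.01). Cox6a2 was at -0.08 by its other probe set, which is not marked as cross-hybridising.

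Under TAA at day 7 the median member lay at -0.03 (all genes -0.00071), with 47 of 81 (58.0%) lower, against 50.2% of all genes. The median of the members was 0.0015, -0.05 and 0.13 on the TAA arrays, which reached both below and above the BSS arrays. One member (1.23%) had an unadjusted p under 0.05, against 3.95% of all genes. That was Ndufa10 (limma adjusted p 0.99995), an accessory subunit of complex I, which read 0.11, 0.11 and 0.10 under BSS and -0.09, -0.57 and -0.09 under TAA. All TAA arrays were lower, replicate 2 by far the most, and the difference was -0.36 (SE 0.158). Sdhc, a membrane anchor of complex II, read 0.29, 0.19 and 0.22 against -0.06, -0.05 and 0.14, a difference of -0.22 (SE 0.16), without overlap. Cox8b read 0.18, -0.07 and 0.29 against 0.08, -0.18 and -0.11, a difference of -0.21 (SE 0.139). On the higher side Atp5pb read 0.06, -0.54 and -0.25 against 0.06, 0.28 and 0.15, a difference of 0.41 (SE 0.227), with TAA replicate 1 level with BSS replicate 1. The other named members on that side were Cox6a2 at 0.23 (-0.23 by its other probe set) and Ndufc2 at 0.21. The arrays did not overlap for 1 member on the higher side (all genes 4.35%) and 3 on the lower side (3.70%; all genes 4.96%).

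DEX against TAA at day 7 gave a median of -0.02 (all genes -0.0020), with 45 of 81 lower (55.6%; all genes 50.5%). Unadjusted p under 0.05 was reached by Sdhd, at -0.40 (SE 0.151, limma adjusted p = 0.727), and Atp5o, at -0.47 (SE 0.165, limma adjusted p = 0.707), which are 2.47% of the members, against 6.47% of all genes. The arrays did not overlap for 8 members on the lower side (9.88%; all genes 5.46%) and 3 on the higher side (3.70%; all genes 6.23%).

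Between the BSS groups, the median member, day 30 minus day 7, lay at -0.07 (all genes 0.0025), with 60 of 81 members lower (74.1%; all genes 49.4%). The arrays did not overlap for 12 members on the lower side (14.8%; all genes 12.2%) and for 5 on the higher side (6.17%; all genes 10.6%). One member (1.23%) had an unadjusted p under 0.05, against 7.81% of all genes. That was Cox6a2, which read -0.15, -0.11 and -0.39 at day 7 and 0.05, 0.25 and 0.42 at day 30, a difference of 0.45 (SE 0.141, limma adjusted p = 0.487). The day 30 arrays were all above the day 7 arrays. Assembly factors were lower at day 30 in 33 of 42 (median -0.15) and mitochondrial ribosomal proteins in 64 of 73 (median -0.15). The change of the DEX effect from day 7 to day 30 had a median of -0.12 (all genes -0.03) and 57 of 81 members on the lower side (70.4%; all genes 55.6%), with 5 (6.17%) at an unadjusted p under 0.05, against 8.56% of all genes. The change of the TAA effect had a median of -0.08 (all genes -0.02) with all arrays and 0.14 without TAA day 30 replicate 2. With all arrays 53 of 81 members (65.4%; all genes 54.2%) were on the lower side of it, and 7 (8.64%) had an unadjusted p under 0.05, against 6.01% of all genes.

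The members varied together from array to array. Over the 18 arrays the median Pearson r between a member and the median of the other members was 0.79, and 55 of 81 had an r above 0.5; among the other 18112 genes the median r with the members was 0.04, and 13.5% were above 0.5. Without TAA day 30 replicate 2 the members' median r was 0.69 and 50 were above 0.5. These are descriptions, since all arrays share 1 normalization and 1 array sets part of the spread. Uqcr11, a small subunit of complex III, followed most closely (0.97), then Ndufb5 (0.95), Atp5d (0.94, the delta subunit) and Cox7a2 (0.94). Pairs of members of 1 complex had a median r of 0.41 and pairs from different complexes 0.35. Between arrays, the median r over the 81 members was 0.07 for pairs of 1 group and -0.08 for pairs of different groups. The highest value for a pair of different groups was that of TAA day 7 replicate 2 with DEX day 30 replicate 2 (0.615), then BSS day 7 replicate 2 with TAA day 30 replicate 1 (0.603). TAA day 7 replicate 2 also correlated at 0.573 with DEX day 30 replicate 1. By complex, the median r of a pair of members was 0.57 within complex III, 0.49 within complex I, 0.27 within complex V, 0.16 within complex IV and -0.11 within complex II. Without TAA day 30 replicate 2 the values were 0.31, 0.37, 0.15, 0.22 and -0.15 in the same order, 0.32 for all pairs of 1 complex and 0.26 for pairs from different complexes. Cytosolic ribosomal proteins followed the members nearly as well (0.68 over 45 genes), mitochondrial ribosomal proteins less (0.54 over 73), assembly factors less again (0.37 over 42) and glycolysis genes 0.12 over 14. Without TAA day 30 replicate 2 these medians were 0.61, 0.45, 0.29 and 0.36, so that glycolysis passed the assembly factors.

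Within groups the members scattered a little more than other genes, with a median residual SD of 0.20 against 0.18. These values include TAA day 30 replicate 2 and are not given without it. The SD of the members' array median was 0.27 on the TAA day 30 arrays and 0.01 to 0.10 in the other groups. Atp5g3 (0.066), another gene for subunit c, and Atp5b (0.067) and Ndufv1 (0.087) scattered least. On the BSS arrays at day 7 and day 30 Atp5g3 read 0.09, 0.04 and 0.09 and -0.005, -0.07 and -0.05, on the DEX arrays 0.05, 0.04 and 0.03 and -0.16, -0.25 and -0.04, and on the TAA arrays 0.01, -0.10 and 0.01 and 0.005, -0.18 and -0.08. DEX day 30 replicate 2 and TAA day 30 replicate 2 were its lowest arrays. Cox7c (0.459), Ndufb10 (0.456) and Ndufa6 (0.406) scattered most. On TAA day 30 Ndufb10 read 0.23, -1.68 and 0.02 and Ndufa6 0.05, -1.54 and -0.03, both lowest on replicate 2.

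Promoter sequence is shown because most members varied together. RefSeq promoter windows of GRCm38.p6, from 250 bases before to 50 after the start, were found for 66 of the 81 members (71 windows). The NRF1 core GCGCANGC, on either strand, was in 22 of 71 windows (31.0%) and in 9.95% of all 32851 windows. The YY1 core AAGATGGC was in 9 (12.7%, all windows 2.75%) and the ETS core CCGGAAGT in 5 (7.04%, all windows 3.89%). The NRF1 core was held by 7 of 31 members of complex I, 3 of 3 of complex II, 2 of 5 of complex III, 1 of 12 of complex IV and 8 of 15 of complex V. A match is a description of letters and not a site. Stretches upstream of the start are shown for 5 members, with the match in capitals, 5′ to 3′ on the gene's strand. The matches in Ndufa6 and Atp5h are on the opposite strand. Sdha is shown since it has 3 NRF1 matches and, by the probe set used, stood high where the other members were low. Its other probe sets were not high there, as described with the probe sets below. Cox6a1 is shown as the complex IV member with such matches, on both strands and in part overlapping. Ndufa6 (NRF1), Uqcr11 (ETS) and Atp5h (ETS, subunit d) are shown as members that were among the low ones on TAA day 30 replicate 2, at -1.54, -1.04 and -0.73. Uqcr11 and Atp5h also hold the NRF1 core, outside the stretches shown.
Sdha: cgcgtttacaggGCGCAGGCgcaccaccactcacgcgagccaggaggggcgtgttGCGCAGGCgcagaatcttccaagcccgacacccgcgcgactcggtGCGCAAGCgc
Cox6a1: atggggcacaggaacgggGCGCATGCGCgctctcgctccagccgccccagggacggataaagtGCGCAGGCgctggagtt
Ndufa6: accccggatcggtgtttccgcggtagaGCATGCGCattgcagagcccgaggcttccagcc
Uqcr11: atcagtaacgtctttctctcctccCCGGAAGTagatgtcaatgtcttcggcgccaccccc
Atp5h: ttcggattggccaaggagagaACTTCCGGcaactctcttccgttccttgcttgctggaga
They lie at chr13:74350241-74350350, minus strand (Sdha), chr5:115349059-115349138, minus strand (Cox6a1), chr15:82354342-82354401, minus strand (Ndufa6), chr10:80406852-80406911, minus strand (Uqcr11) and chr11:115419920-115419979, minus strand (Atp5h). The 21 members with the NRF1 core had a median difference of -0.11 in DEX against BSS at day 30 (16 lower), and the 45 with a window and no such core -0.16 (37 lower). In TAA against BSS at day 30 the medians were -0.15 (14 of 21 lower) and -0.08 (31 of 45 lower). Without TAA replicate 2 they were 0.15 (1 of 21 lower) and 0.09 (11 of 45 lower). At day 7 they were -0.03 and -0.05 under DEX, and 0.03 and -0.05 under TAA. These are descriptions without a test.

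For several members the values depended on the probe set. Of the 81 members, 48 had more than 1 probe set, and the one of largest spread over the arrays was used. Its median r with the mean of the gene's other probe sets was 0.716, but in 8 members it was below 0. In 14 of the 48 the probe set used had an r under 0.2 with the other members, and in 6 of these another probe set of the same gene had an r above 0.7. These 6 are Atp5c1, Atp5g1, Atp5j2, Cox5b, Ndufa12 and Ndufb2. For Atp5c1 the probe set used had an r of -0.51 and was higher under TAA at day 30 by 0.57, and the other had an r of 0.85 and a difference of -0.20. For Ndufb2 the probe set used gave 0.25 in DEX against BSS at day 30, and the other 2 gave -0.49 and -0.47. For Atp5g1 the values in that comparison were 0.44 and -0.14. For Ndufa12, an accessory subunit of complex I, the probe set used gave 0.54 in TAA against BSS at day 30 and the other 3 gave between -0.21 and -0.18. For Cox5b the direction under DEX at day 30 held: the probe set used gave -0.54 and the other 5 between -0.25 and -0.05. Cox7c stood apart in both of its probe sets (r of -0.63 and -0.44, with 0.87 and 0.75 in TAA against BSS at day 30). Sdha had an r between -0.32 and 0.26 in all 4 of its probe sets, though the high values on the TAA day 30 arrays were those of the probe set used (0.46, the others between -0.06 and 0.02).

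**Figure D5:**
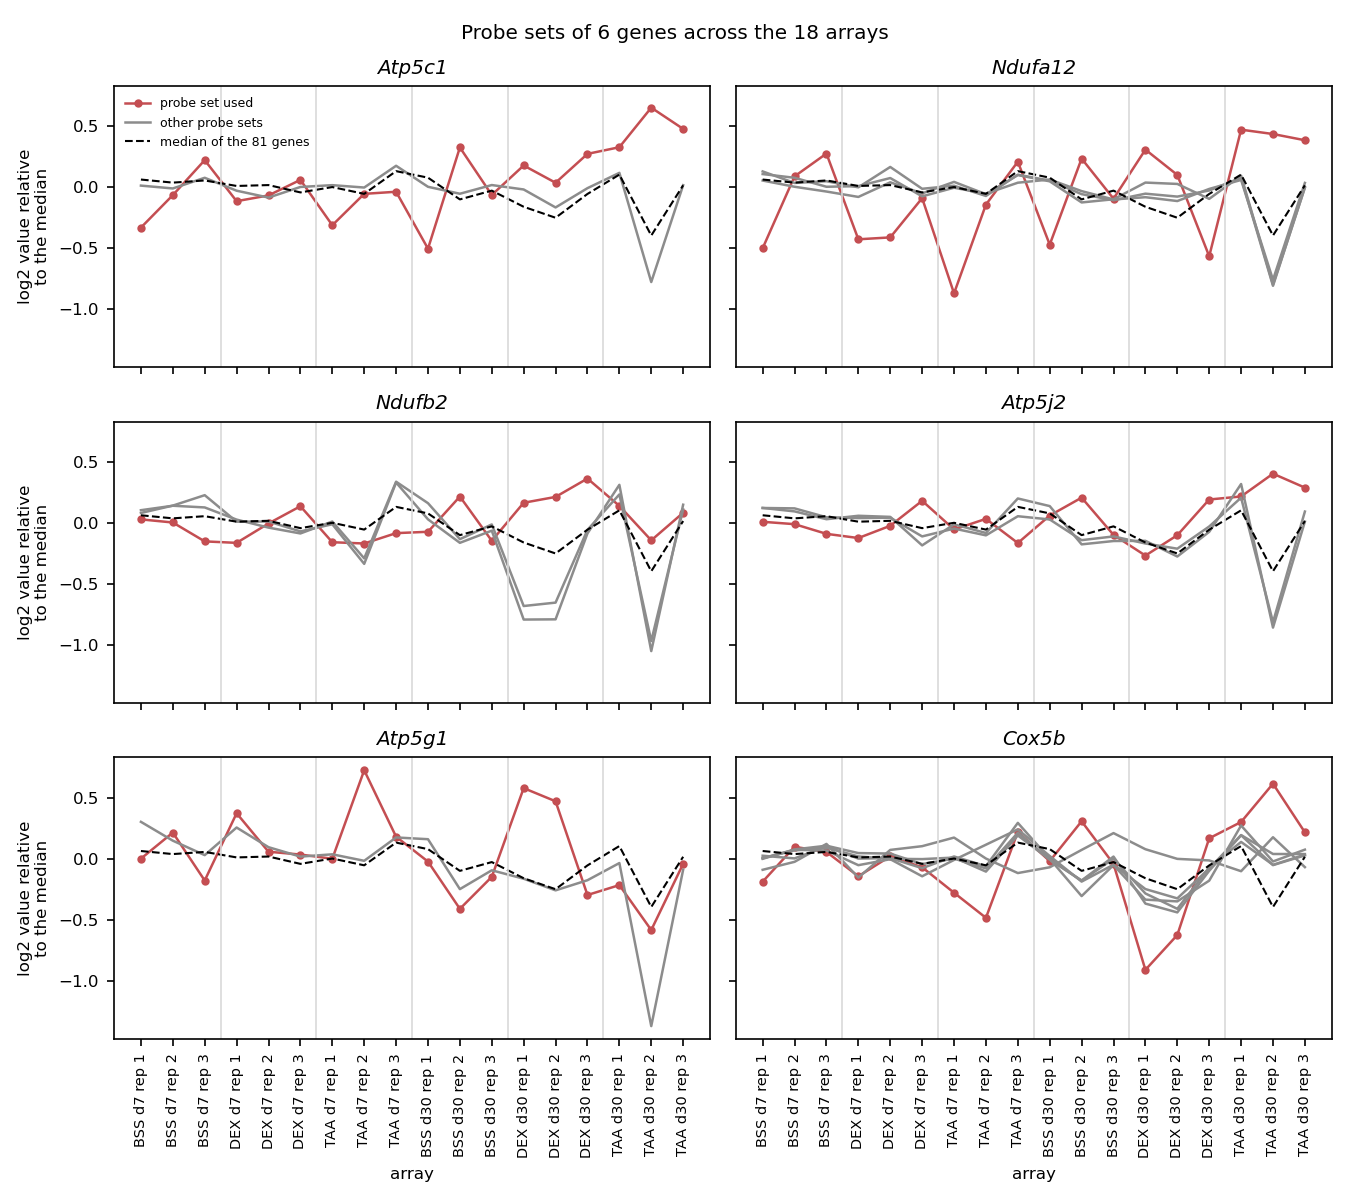
Log2 value relative to the median on the 18 arrays for each probe set of 6 genes: the probe set used (red), the gene's other probe sets (grey) and the median of the 81 genes (dashed). Except in Cox5b, the grey lines fall below -0.7 on TAA day 30 replicate 2 while the red lines of Atp5c1, Ndufa12 and Atp5j2 are above 0.4 there.

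Of the partners outside the symbol rule, 4 were measured: Ndufab1 (a complex I subunit), Cyc1 (cytochrome c1 of complex III), Cycs (cytochrome c itself) and Atpif1 (the inhibitor of ATP synthase). None passed the adjusted threshold in any of the 9 comparisons. Their differences in DEX against BSS at day 30 ran from -0.18 for Atpif1 to 0.80 for Ndufab1, and in TAA against BSS at day 30 all 4 were on the higher side, from 0.03 for Cyc1 to 0.29 for Ndufab1.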

How the data were processed

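Retinal RNA of 18 samples, 3 in each of 6 groups, was measured on Affymetrix arrays; per the labels' protocols, cRNA was prepared with the two-cycle procedure, which favours 3' ends. Values are on a log2 scale: per the submitters' processing notes the authors used RMA, whose convention gives the log base and the direction; its version is not given in the sources used here. All 45101 probe sets have a median over the arrays no farther than 1e-06 from 0, so the authors' deposited log2 values are centred per probe set, and no filter on level could be applied.

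Probe sets were named from the platform annotation: 34945 named 1 gene, 932 several and 9160 are unnamed here. For each gene the probe set of largest interquartile range over the arrays was kept. The members had 164 probe sets; 9 more that match the rule name several genes and were not used, so Ndufs6 and Ndufa11 are not analysed here, and 29 members rest on a probe set that may cross-hybridise by its ID. All genes were fitted in 1 model by limma 3.58.1 (R 4.3.3) with a mean for each group and empirical Bayes moderation, which leaves 12 residual degrees of freedom, with Benjamini-Hochberg adjustment at 0.05. The script was tested on simulated data. Comparisons share arrays, and the labels give no batch or scan date.

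The members and lists were chosen with earlier results of these data known. Named members are the 3 of smallest p in each direction for each drug against BSS, core subunits, tissue isoforms with their partners, and the members of lowest and highest residual SD; any other named member was chosen after its values were seen. Alternatives were centring, quantile normalization, the mean of probe sets, no cross-hybridising probe sets, genes of low spread left out, arrayWeights, only the groups compared, a replicate block and each replicate left out. TAA day 30 replicate 2 left out of every fit was added after seeing the data, and that array was set apart by the members' own values. Same-numbered arrays deviated together (r above 0.1 in all 3 pairs) in 1 of 7 comparisons, DEX against BSS at day 30 (0.111 to 0.282). In BSS at day 30 against day 7 the same-numbered pairs did not all reach 0.1 (0.057 to 0.189). They too lay above all unlike-numbered pairs (-0.113 to 0.027).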

Additional observations from a re-analysis of the deposited data

How the results depend on the processing

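Centred values hide the signal over background, 3 arrays a group limit every count, and 33 members rest on 1 probe set. No member passed an adjusted p under 0.05 in any of the 9 comparisons, and this count of 0 was kept in 140 of 147 alternative fits. With arrayWeights it became 20 for DEX against BSS at day 30, 1 for DEX against TAA at day 7, 22 for DEX against TAA at day 30, 1 for BSS between the days and 6 for the change of the DEX effect. Leaving out 1 replicate gave 0 to 2 members for DEX against BSS and 0 to 4 for DEX against TAA at day 30, the highest in both without DEX day 30 replicate 3.

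Counts over all genes moved more often. With arrayWeights they were 164 for DEX against BSS at day 7, 49 for TAA against BSS at day 7, 2699 for DEX against BSS at day 30, 1 for TAA against BSS at day 30, 747 and 2367 for DEX against TAA at day 7 and day 30, 527 for BSS between the days, and 1728 and 17 for the change of the DEX and the TAA effect. With only the arrays of the groups compared they were 2 for DEX and 0 for TAA against BSS at day 7, 0 for DEX against TAA at day 7, 3 for BSS between the days and 10 for the change of the DEX effect. Quantile normalization gave 2 for TAA against BSS and 2 for DEX against TAA at day 7, and 50 for BSS between the days; centring gave 0 for DEX against TAA at day 7. The mean of probe sets gave 3 for TAA against BSS at day 7 and 1 for TAA against BSS at day 30, and dropping probe sets that may cross-hybridise gave 1 for the latter. Without TAA day 30 replicate 2 in any fit, an alternative chosen after seeing the data, the count was 2 for DEX against BSS at day 30, 9 for BSS between the days and 1 for the change of the DEX effect. Leaving out 1 replicate gave 0 to 1 for DEX and 0 to 15 for TAA against BSS at day 7, 0 to 695 for DEX against BSS at day 30, 0 to 5 for DEX against TAA at day 7, 0 to 1253 at day 30, 0 to 5 for BSS between the days, and 0 to 1 and 0 to 2 for the change of the DEX and the TAA effect. Counts above those with all arrays came without DEX day 7 replicate 2, TAA day 7 replicate 3, BSS day 30 replicate 2, DEX day 30 replicate 3 or TAA day 30 replicate 1. The single gene of TAA against BSS at day 7 was lost without any 1 of the other 5 arrays, and that of DEX against TAA likewise.

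The median member difference moved by less than 0.128, the pooled SD of the members' array median within groups, in 138 of 147 fits. Each median difference with all arrays was smaller in size than that limit, so a change of sign could stay under it. Over single replicates left out, the median for DEX against TAA at day 7 ran from -0.064 to 0.028. The median for TAA against BSS at day 7 ran from -0.081 to 0.0030. For TAA against BSS at day 30 (-0.09) it was 0.046 with arrayWeights, 0.088 without TAA day 30 replicate 2, and -0.17 to 0.088 over single replicates left out. For DEX against TAA at day 30 (-0.06) it was -0.20, -0.23, and -0.23 to 0.083. For the change of the TAA effect (-0.08) it was 0.14 without TAA day 30 replicate 2 and -0.20 to 0.14 over single replicates. For DEX against BSS at day 30 (-0.13) it stayed between -0.18 and -0.08 over single replicates.

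With the replicate number as a block, no member passed in any comparison, and the counts of genes were 0 for TAA against BSS and DEX against TAA at day 7, 1 for TAA against BSS at day 30 and 101 for DEX against TAA at day 30; it changed no other call. Same-numbered arrays correlated above 0.1 in 11 of 21 pairs (-0.215 to 0.427).

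Of 778 alternative values for 54 member results, 744 kept their sign and side of the threshold, 23 passed it, and 11 changed sign. Without probe sets that may cross-hybridise Cox6a2 was at -0.078 under DEX and -0.23 under TAA at day 7, Sdhd at -0.092 and Uqcrq at 0.090 under DEX at day 30. With the mean of probe sets Cox6a2 was at -0.00027 under TAA at day 7 and Ndufb2 at -0.24 under DEX at day 30. Quantile normalization put Cox5a at 0.0019 under DEX at day 30. Leaving out 1 replicate gave -0.015 to 0.29 for Atp5pb under DEX at day 7, and under DEX at day 30 -0.29 to 0.036 for Sdha, -0.11 to 0.020 for Cox5a and -0.39 to 0.040 for Cox7a1. The causes were not tested.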
